A study of Bos grunniens with 24 samples.

Results

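PAPPA2, pappalysin 2, is a secreted metalloprotease of the metzincin superfamily, and it is described here across 24 RNA sequencing libraries of jejunal tissue from yak calves (Bos grunniens). It is 1 of 639 genes in the deposited table, every one of which the authors had called in at least 1 comparison. It was chosen by its measured FPKM and counts, which lay above all control libraries in both challenged groups, so its differences from the controls are given as a description without a test. The ETEC group (n = 8) was challenged with enterotoxigenic Escherichia coli, a bacterium that causes diarrhoea in young calves. The PET group (n = 8) received the lactic acid bacterium P. pentosaceus NQ0729 and was then challenged with the same pathogen. The CON group (n = 8) served as control. The labels name no genotype or other treatment for any group, and give no age, sex, dose, time of sampling or position along the jejunum. They name the samples replicate biosamples without naming animals, and p-values therefore reflect how far these samples scatter, which may be partly technical.

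In the body, pappalysin 2 cuts the binding proteins IGFBP3 and IGFBP5. Insulin-like growth factors circulate and rest in tissues bound to such proteins, and cutting them frees the growth factor to reach its receptor IGF1R. Stanniocalcins (STC1 and STC2) inhibit pappalysins, and in humans loss of PAPPA2 function is known for poor growth with much bound and little free growth factor. The gene is best known from placenta, kidney and bone.

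The 24 libraries are not all alike within their groups. Total counts over the listed genes were 466708 to 863801 in ETEC, 475295 to 1209769 in PET and 299776 to 826249 in CON, and sequencing depth, read from the ratio of count to FPKM, was 0.848 to 1.501, 0.834 to 1.30 and 0.718 to 1.10 relative to the geometric mean of the libraries. In 10 libraries (ETEC-1 to ETEC-4, PET-1 to PET-3 and CON-1 to CON-3) expression over the listed genes was nearly a weighted mix of 2 further libraries from the group, with a residual of 0.255 to 0.703 of that after the best single library, against 0.837 to 1 in the other 14. Results are therefore also given for those 14, called unmixed here. At 7 Y-linked loci, taken as those in the table without a count in CON, ETEC-8 also had no count and PET-8 had 1, while the other 14 challenged libraries had 3383 to 11382 counts. Challenge and Y-linked expression thus cannot be told apart over most of the series.

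PAPPA2 (ENSBGRG00000005766) lies on chromosome 14, 56672622 to 56970223, on the + strand, in the coordinates of the authors' table, whose genome build is not given in the sources used here. The locus spans 297.6 kb. Values are for the whole gene, and no exon or UTR annotation was used here. FPKM counts fragments per kilobase of transcript, not of the locus span, scaled to mapped fragments. The mean of PAPPA2 over the 24 libraries was 1.54 FPKM, against a median of 1.76 FPKM for the 639 listed genes. PAPPA2 was therefore a gene of middling level within the table, covered by 26 to 712 counts per library.

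By group mean, PAPPA2 was highest in challenged calves, next in pretreated and challenged calves, and lowest in controls, and the first and second of these did not differ beyond the spread between libraries. The 8 ETEC libraries stood at 1.57 FPKM at the lowest, 2.35 at the median and 2.87 at the highest. The 8 PET libraries stood at 0.833, 1.75 and 3.14 FPKM, and the 8 CON libraries at 0.158, 0.497 and 0.766 FPKM, in the same order. No ETEC or PET library overlapped the CON range. The means were 2.30 ± 0.466 FPKM in ETEC, 1.83 ± 0.878 in PET and 0.501 ± 0.191 in CON (SD, n = 8 each). In raw counts the ranges were 337 to 712 in ETEC, 162 to 606 in PET and 26 to 159 in CON, where PET-8 with 162 and CON-1 with 159 nearly met before scaling for depth.

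**Figure D1:**
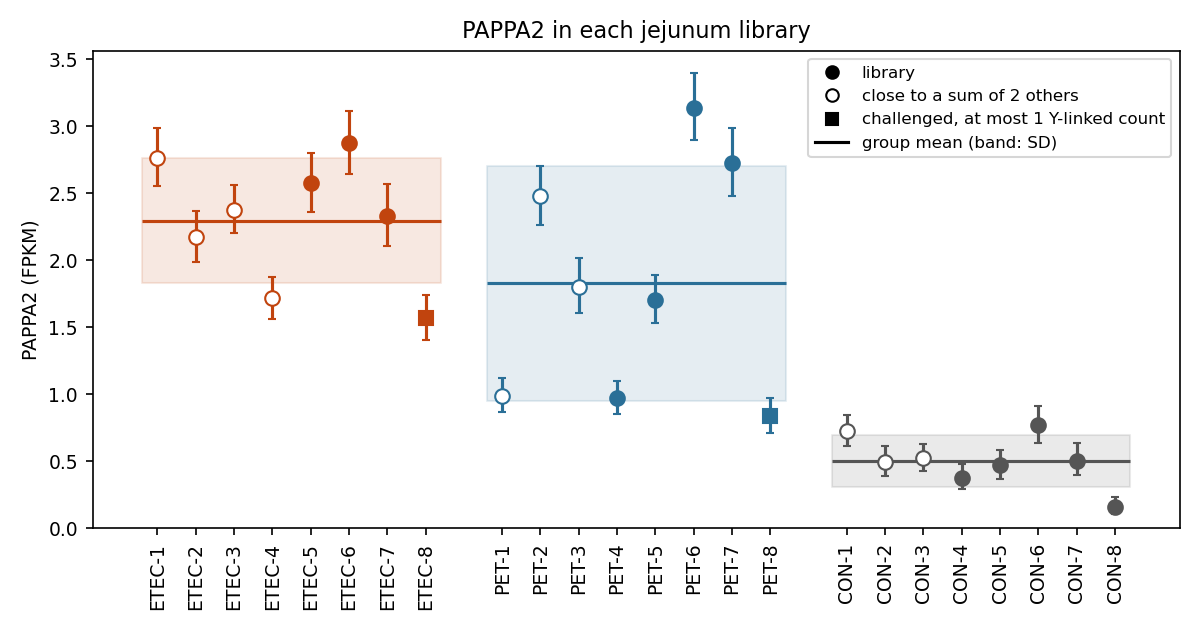
PAPPA2 in FPKM (vertical axis) in each library (horizontal axis) of the ETEC, PET and CON groups, with 95% exact Poisson intervals that cover counting error only, and the group mean with a band of 1 SD. All 8 ETEC libraries lie at 1.57 FPKM or above and all 8 CON libraries at 0.766 or below, while PET libraries run between 0.833 and 3.14.

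As a fold change, PAPPA2 was 4.58 times as high in ETEC as in CON (log2 fold change 2.19 ± 0.33, SE) and 3.65 times as high in PET as in CON (1.87 ± 0.33, SE). Both comparisons share the CON libraries. The size depends on the scaling and the model. With TMM scaling PAPPA2 was 7.30 times as high in ETEC as in CON (log2 fold change 2.87) and 4.26 times as high in PET as in CON (2.09). With Y-linked counts as a term, described further on, it was 2.63 and 2.05 times as high. The authors' deposited table gives log2 fold changes of 2.25 and 1.91 for these comparisons. Over the 14 unmixed libraries, the log2 fold changes were 2.36 ± 0.56 (SE) for ETEC and 2.04 ± 0.54 (SE) for PET against CON. In bulk tissue, more cells that express a gene and more of its RNA per cell cannot be told apart.

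The margin between the groups was wide for ETEC and narrow for PET. The lowest ETEC library, ETEC-8, was 2.04 times the highest CON library, CON-6. The lowest PET library, PET-8, was 1.09 times CON-6. PET-8 had 162 counts (95% exact Poisson interval 138 to 189, or 0.709 to 0.971 FPKM) and CON-6 had 125 (104 to 149, or 0.638 to 0.913 FPKM), so these intervals overlap. Of the 639 listed genes, 39 (6.1%) had every ETEC library above every CON library and 12 (1.88%) had every PET library above every CON library. Only 4 genes (0.626%) did both, of which PAPPA2 was the only one with a symbol, and since the choice of PAPPA2 rests on this property nothing further is read from it. The other 3 were the gene ENSBGRG00000011810 and a pair of unannotated loci, named here after their values were seen.

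The libraries ETEC-8 and PET-8, which lack Y-linked counts as all controls do, were the lowest of their groups for PAPPA2. ETEC-8 had 1.57 FPKM, against 2.40 ± 0.390 in the other 7 ETEC libraries (SD), which ranged from 1.71 to 2.87. PET-8 had 0.833 FPKM, against 1.97 ± 0.843 in the other 7 PET libraries (SD), which ranged from 0.968 to 3.14. Set against the CON mean, ETEC-8 was 3.13 times and PET-8 1.66 times as high, while the means of the other 7 libraries were 4.79 and 3.93 times as high. With the presence of Y-linked counts as a term in the model, the log2 fold change was 1.40 ± 0.45 (SE) for ETEC against CON and 1.03 ± 0.48 (SE) for PET against CON. These estimates rest on ETEC-8 and PET-8, which are single libraries. Libraries set against them may also contain them. By weight, ETEC-4 and ETEC-3 fitted as mixes with 49.4% and 24.7% ETEC-8, and PET-3 as a mix with 55.2% PET-8. These libraries were counted as carrying Y-linked counts, of which PET-3 had 3383.

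**Figure D2:**
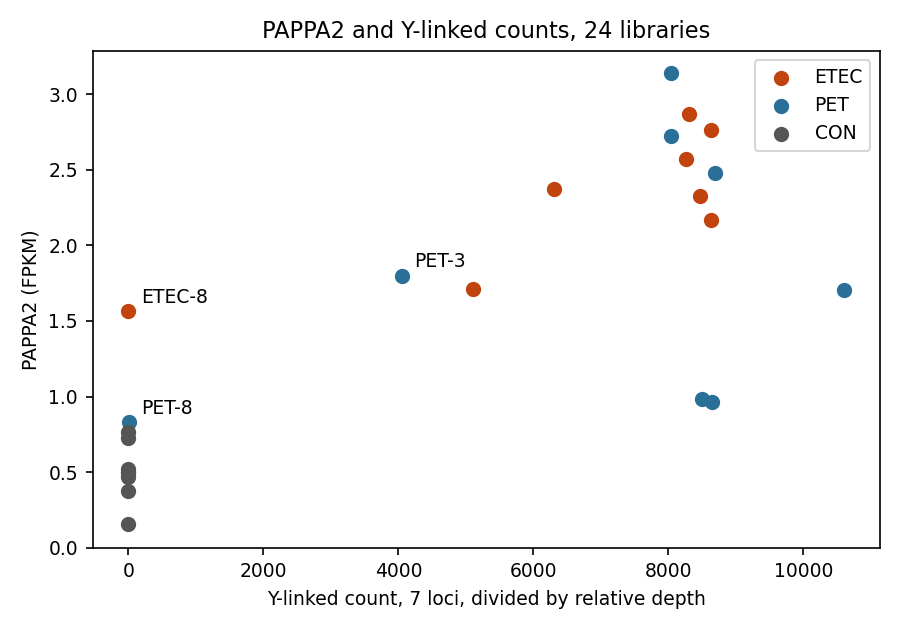
PAPPA2 in FPKM (vertical axis) against the summed count of 7 Y-linked loci divided by relative depth (horizontal axis), 1 point per library. The 8 CON libraries, ETEC-8 and PET-8 stand at or near 0 on the horizontal axis, where ETEC-8 is at 1.57 FPKM and PET-8 at 0.833, and all libraries past 1.80 FPKM carry Y-linked counts.

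The comparison of PET with ETEC, which asks what the pretreatment changed in challenged calves, was not itself a criterion for choosing PAPPA2 and was tested. The choice did require every ETEC and PET library to lie above CON, so a gene at the control level in PET could not have been chosen. The test is therefore not fully independent of the choice. PAPPA2 had a log2 fold change of -0.33 ± 0.32 (SE) in PET against ETEC, and edgeR's quasi-likelihood test did not call it (adjusted p = 0.433). The 95% interval of that log2 difference ran from -0.98 to 0.33, which is 0.506 to 1.25 times the ETEC level. Among all 577 genes tested, 47.0% were called in this comparison. The mean of log2(FPKM + 0.1) differed by -0.43, with an exact permutation p = 0.132 (two-sided, 12870 regroupings, n = 8 and 8). The authors' deposited table gives a log2 fold change of -0.35 with an adjusted p of 0.484 for it. The data neither place PET below ETEC beyond the spread between libraries nor show that the groups are alike.

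The PET libraries were more scattered than the ETEC libraries, a difference in spread that was not tested. The highest PET library was 3.77 times the lowest, against 1.83 times in ETEC and 4.86 times in CON, and the coefficient of variation was 48.0% in PET, 20.3% in ETEC and 38.1% in CON. PET-6, PET-7 and PET-2 were at 3.14, 2.72 and 2.48 FPKM, PET-3 and PET-5 at 1.80 and 1.70, and PET-1, PET-4 and PET-8 at 0.985, 0.968 and 0.833. Of the 8 PET libraries, 4 lay within the ETEC range, 3 below it and 1 above it. Counting error made up 4.78% of the variance of depth-scaled counts in ETEC, 1.22% in PET and 7.88% in CON. PET-1 was nearly a mix of PET-4 (89.3% by weight) and PET-5, although this was the weakest such fit of the 10 (residual ratio 0.703), and the labels do not say whether samples were pooled. Over the unmixed libraries, PAPPA2 was at 2.33 ± 0.558 FPKM in ETEC (SD, n = 4), 1.87 ± 1.03 in PET (n = 5) and 0.454 ± 0.220 in CON (n = 5).

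For the 10 libraries that resemble mixes, the fitted weights gave PAPPA2 values within 0.1 to 20.3% of those measured. PAPPA2 was itself among the 510 genes used to fit the weights, so this is not an independent check. ETEC-1, for example, was at 2.77 FPKM, and 2.77 was obtained from ETEC-5 and ETEC-6. PET-3 was at 1.80 FPKM, and 1.78 was obtained from PET-6, the highest PET library, and PET-8, the lowest.

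**Figure D3:**
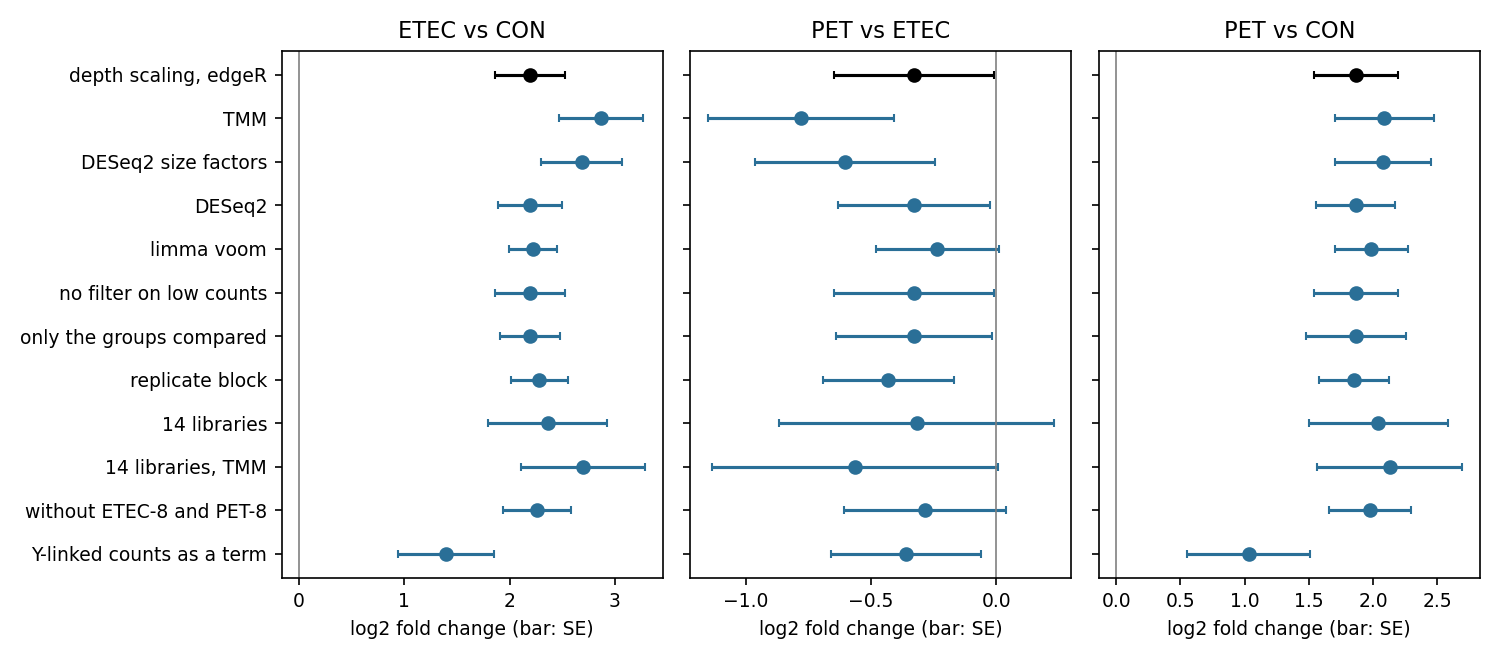
Log2 fold change of PAPPA2 (horizontal axis, bars are SE) in the 3 comparisons (panels) under the depth scaling used here and under other scalings, tools, filters and sets of libraries (rows). Both comparisons with CON stay above 0 in every row and are smallest with Y-linked counts as a term (1.40 and 1.03), and PET against ETEC stays below 0 in every row, between -0.78 and -0.23.

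The jejunal samples differed in epithelial markers, whose values were set beside PAPPA2. Enterocytes, the absorptive cells of the gut lining, were represented by 7 of 22 listed markers (ENPEP, MTTP, ANPEP, XPNPEP2, ENPP3, SLC15A1 and MEP1A), none of them at 0 throughout. Their summed level was 201 to 259 FPKM in ETEC, 140 to 1915 in PET and 125 to 905 in CON. The sum hides members that go different ways. MTTP, which loads lipid onto lipoproteins, was at 59.5 to 77.4 FPKM in ETEC, 15.0 to 119.1 in PET and 19.4 to 48.5 in CON. ENPP3, an ectonucleotide pyrophosphatase, was at 92.7 to 141 FPKM in ETEC, 2.91 to 271 in PET and 4.22 to 90.8 in CON. Both thus had every ETEC library above every CON library, as PAPPA2 and 6.1% of all listed genes did, with PET overlapping CON. The peptidases ANPEP, ENPEP and XPNPEP2 had lower means in ETEC than in CON, as with ANPEP at 11.96 ± 2.50 FPKM in ETEC, 514 ± 534 in PET and 319 ± 290.5 in CON (SD, n = 8 each). Of 6 markers of ileal enterocytes, from the segment beyond the jejunum, SLC10A2, OSR2 and FABP6 were present and summed to 1.84 to 5.24 FPKM in ETEC, 4.09 to 289 in PET and 1.45 to 998 in CON. PET-6 and PET-8, at the top and the bottom of the PET range for PAPPA2, had enterocyte geometric means of 10.8 and 9.95 FPKM and ileal geometric means of 1.02 and 0.948 FPKM. PET-4 and PET-1, both low for PAPPA2, had the highest enterocyte geometric means, 174 and 146 FPKM. PET-1 fitted, if weakly, as a mix with 89.3% PET-4 by weight, so they may not be separate observations. PET-7 and PET-2, next in PET with enterocyte geometric means of 45.5 and 35.4 FPKM, were high for PAPPA2, at 2.72 and 2.48 FPKM. In CON, PAPPA2 was at 0.158 to 0.502 FPKM in CON-4, CON-7 and CON-8, where the ileal geometric mean was at most 0.882 FPKM, and at 0.468 to 0.766 FPKM in the other 5 CON libraries, where it was at least 9.92 FPKM. Of those 5, CON-1, CON-2 and CON-3 fitted as mixes that include CON-5 or CON-6, so they are not separate observations. The unmixed CON-5 was at 0.468 FPKM of PAPPA2, below CON-7 at 0.502, and CON-6 was at 0.766.

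**Figure D4:**
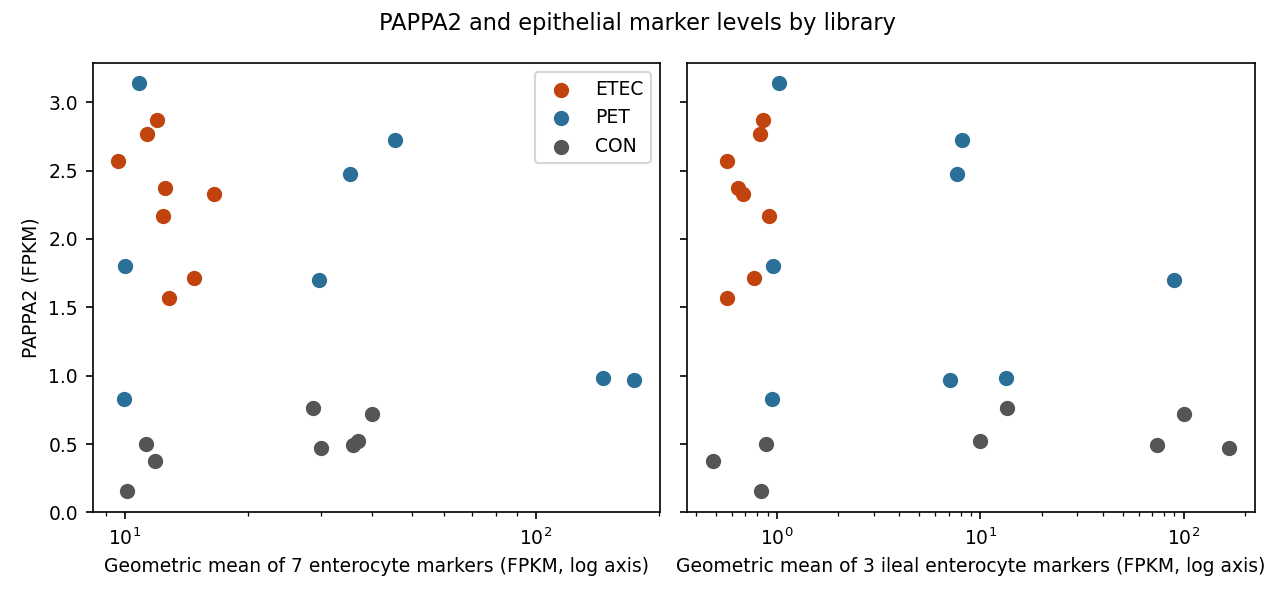
PAPPA2 in FPKM (vertical axis) against the geometric mean of 7 enterocyte markers (left) and 3 ileal enterocyte markers (right), in FPKM on log axes, 1 point per library. ETEC libraries stay within a narrow marker range at 1.57 to 2.87 FPKM of PAPPA2, and PET libraries of nearly equal marker level differ from 0.833 to 3.14.

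Markers of other cell types were sparse among the listed genes, which are only those called by the authors, so absence from the list does not mean absence from the tissue. Of 15 marker lists, 9 had a member in the table, and lists for fibroblasts, smooth muscle, endothelium, tuft cells, B and plasma cells, and glia and neurons had none. No marker had every challenged library above every CON library, which held for only 0.626% of the 639 listed genes, so nothing about cell types is read from this. The macrophage receptor TREM2, 1 of 8 macrophage markers, was at 2.60 ± 0.623 FPKM in ETEC, 3.00 ± 0.760 in PET and 1.48 ± 0.382 in CON (SD, n = 8 each), with overlapping ranges. CCK, a hormone gene of enteroendocrine cells and 1 of 2 of their 12 markers in the table, was at 1.03 to 4.55 FPKM in ETEC, 0.299 to 6.91 in PET and 0.302 to 0.981 in CON. CCK too had every ETEC library above every CON library, as did 6.1% of all listed genes. The other enteroendocrine marker, NTS, was at 5.84 ± 0.936 FPKM in ETEC, 13.8 ± 8.32 in PET and 37.6 ± 32.5 in CON. TFF1, a trefoil peptide of mucous cells, was at 3.53 ± 1.61 FPKM in ETEC, 1.95 ± 1.68 in PET and 1.33 ± 1.04 in CON. The neutrophil markers LTF and MPO summed to 0.235 to 0.725 FPKM in ETEC, 0.213 to 2.60 in PET and 0.664 to 2.73 in CON. The T and NK cell markers GZMA, GZMM and KLRF1 summed to 17.1 to 25.7 FPKM in ETEC, 21.8 to 133 in PET and 22.8 to 102 in CON. The crypt base marker OLFM4 was at 78.7 to 396 FPKM in ETEC, 23.7 to 119.1 in PET and 102 to 303 in CON. The eosinophil receptor CCR3 was at 0.824 to 3.73 FPKM in ETEC, 0.141 to 12.8 in PET and 2.50 to 9.80 in CON. The part of these cell types in the PAPPA2 values was not tested.

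Of 42 genes of the growth factor axis, counting ligands, receptors, binding proteins, inhibitors and signalling partners, 1 is in the table. Only genes called by the authors are listed, and the share of all measured genes that were called is not known here. This number is therefore not read as few or many. IGF2BP3, which binds the mRNA of the ligand IGF2 among others and is best known as a fetal RNA-binding protein, was at 5.19, 10.3 and 14.3 FPKM (lowest, median and highest) in ETEC, 1.51, 4.35 and 12.2 in PET and 8.41, 11.7 and 13.6 in CON. It fell in PET against ETEC (log2 fold change -0.90 ± 0.33, SE; edgeR adjusted p = 0.0261) and in PET against CON (-1.07 ± 0.33, SE; adjusted p = 0.0133), where 41.4% of all genes tested were called. In ETEC against CON, where 70.9% of all genes tested were called, its log2 fold change was -0.16 (adjusted p = 0.653), and it was above 0 with TMM scaling (0.41). The median log2 fold change of all genes tested was -0.63 in ETEC against CON, 0.45 in PET against ETEC and 0.41 in PET against CON. The call in PET against ETEC was lost without ETEC-3, PET-1, PET-4 or PET-5 (adjusted p = 0.0508 to 0.0535) and with only the groups compared (0.0596), and over the 14 unmixed libraries both calls were lost (0.373 and 0.246). The call against CON was also lost with Y-linked counts as a term (0.446) and with DESeq2 size factors (0.0538). The authors' deposited adjusted p was 0.0228 in PET against CON, 0.0782 in PET against ETEC and 0.697 in ETEC against CON. IGF2BP3 is listed because the authors called it from these libraries, so its tests here are not independent of that call. PET-6, the library with the most PAPPA2, had the least IGF2BP3, at 1.51 FPKM. PET-7, next in PET for PAPPA2, had the most IGF2BP3 in PET, at 12.2 FPKM. A relation between these genes was not tested. The ligands IGF1 and IGF2, the receptor IGF1R, the binding proteins IGFBP3 and IGFBP5, the related protease PAPPA and the inhibitors STC1 and STC2 were not analysed here.

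Among 63 further metzincin proteases and their inhibitors, 3 are in the table, a number not read as few or many for the same reason. The values of those 3 follow. None had every challenged library above every CON library, which held for only 0.626% of the 639 listed genes and was the basis for choosing PAPPA2. MMP7, the epithelial protease matrilysin, was at 0.153, 0.383 and 1.93 FPKM (lowest, median and highest) in ETEC, 0.0274, 0.0760 and 0.542 in PET and 0.180, 0.426 and 1.73 in CON. It fell in PET against ETEC (log2 fold change -2.23 ± 0.66, SE; edgeR adjusted p = 0.00939) and in PET against CON (-1.83 ± 0.66, SE; adjusted p = 0.0295), on 1 to 18 counts per PET library. The first call was lost with limma voom (adjusted p = 0.0747) and over the 14 unmixed libraries (0.347). The second was lost without CON-5 (adjusted p = 0.0872), without CON-8, PET-1, PET-3, PET-4 or PET-6 (0.0516 to 0.0551), with limma voom (0.170), with Y-linked counts as a term (0.408) and over the 14 unmixed libraries (0.219). The authors' deposited adjusted p for MMP7 was 0.0211 in PET against ETEC, and none is given for PET against CON.

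MEP1A, a subunit of the brush border protease meprin, was at 0.726, 1.82 and 9.04 FPKM in ETEC, 0.637, 7.34 and 122 in PET and 3.00, 6.30 and 19.7 in CON, again as lowest, median and highest. It rose in PET against ETEC (log2 fold change 3.43 ± 0.98, SE; edgeR adjusted p = 0.00776), where the ranges overlap, and not in the other comparisons (adjusted p = 0.0937 and 0.128). That call was lost with the replicate number as a block (adjusted p = 0.145) and over the 14 unmixed libraries (0.175). In ETEC against CON, the log2 fold change of MEP1A was -1.69, and it passed without ETEC-7 (adjusted p = 0.0480), with limma voom (0.00519) and with only the groups compared (0.0130). MMP9, the gelatinase of neutrophils and macrophages, was at 22.0 ± 10.4 FPKM in ETEC, 30.7 ± 31.7 in PET and 46.7 ± 17.2 in CON (SD, n = 8 each) and passed in no comparison (edgeR adjusted p = 0.0722 to 0.507). In ETEC against CON its log2 fold change was -1.09, and it passed without PET-5 or PET-7 (adjusted p = 0.0420 and 0.0249), which enter through the shared estimate of the spread, with only the groups compared (0.00897) and with limma voom (0.00975). In PET against CON it passed without PET-5 (adjusted p = 0.0473) and with limma voom (0.0214). The authors' deposited adjusted p in ETEC against CON was 0.0128 for MMP9 and 0.0179 for MEP1A, so both passed there and not here. In the other comparisons of MMP9 and MEP1A, the deposited calls were the same as here.

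BRINP2, a secreted protein of the nervous system, is the only other listed gene within 1 Mb of PAPPA2. It lies on chromosome 14, 57503685 to 57575101, on the same strand and 533 kb past the end of PAPPA2. Its level was low throughout, at 0.127 ± 0.0473 FPKM in ETEC, 0.178 ± 0.0695 in PET and 0.0759 ± 0.0328 in CON (SD, n = 8 each), on 4 to 52 counts per library, and the groups overlap. It rose in PET against CON (log2 fold change 1.22 ± 0.35, SE; edgeR adjusted p = 0.00797), a call lost over the 14 unmixed libraries (0.201) and with Y-linked counts as a term (0.107). In ETEC against CON its log2 fold change was 0.75 (adjusted p = 0.0554), and it passed with TMM scaling (0.00583), DESeq2 size factors (0.0119), DESeq2 (0.0368), limma voom (0.0453) and only the groups compared (0.0419). It also passed there without CON-4, CON-7, ETEC-5, ETEC-7 or PET-7 (adjusted p = 0.0348 to 0.0498). The authors' deposited adjusted p for BRINP2 was 0.0352 in ETEC against CON, which passes, and 0.00522 in PET against CON.

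The listed gene whose pattern over the 24 libraries lay nearest to that of PAPPA2 was USP9Y, a Y-linked ubiquitin protease gene. Likeness was the root mean square difference of standardised log2(FPKM + 0.1), over 167 named genes averaging 1 FPKM or more, where 0 is an identical pattern and the median gene was at 1.55. This measure includes the difference between challenged and CON libraries on which PAPPA2 was chosen. Genes that share that difference come near on it, so the ranking is not independent of the choice. USP9Y was at 0.591, followed by TMEM72 at 0.793, PROZ (plasma protein Z) at 0.805, INPP5J (an inositol polyphosphate phosphatase) at 0.861 and TREM2 at 0.886. USP9Y had 10.1 ± 4.46 FPKM in ETEC, 11.1 ± 5.59 in PET and no count in CON (SD, n = 8 each), with 0 FPKM in ETEC-8 and PET-8. TMEM72 was at 4.72 ± 0.598 FPKM in ETEC, 3.32 ± 1.35 in PET and 2.12 ± 0.451 in CON, and PROZ at 2.57 ± 1.13, 1.78 ± 0.551 and 0.607 ± 0.333 in the same order. Over the 14 unmixed libraries, USP9Y was again nearest and 4 of the 5 genes were the same (USP9Y, TMEM72, PROZ and INPP5J).

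**Figure D5:**
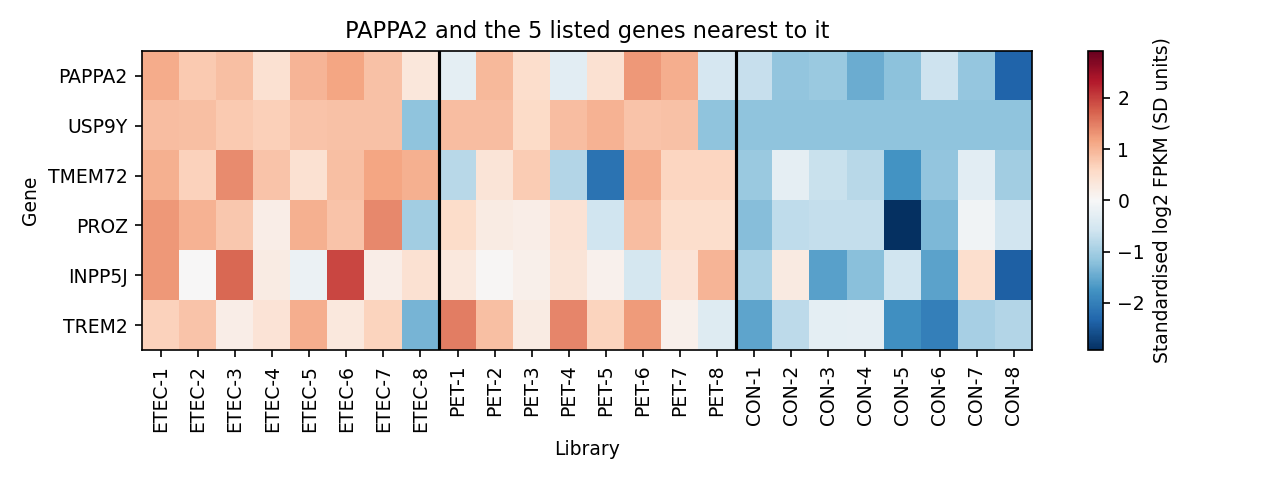
Standardised log2(FPKM + 0.1), in SD units, of PAPPA2 and the 5 listed genes nearest to it (rows) in each library (columns, ETEC, PET and CON from left to right). USP9Y separates all CON libraries, ETEC-8 and PET-8 from the rest, while TMEM72, PROZ, INPP5J and TREM2 are mostly higher in ETEC than in CON.

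Within groups, different genes lay nearest. By the same measure on deviations from group means, FMO1, a flavin-containing monooxygenase, was nearest (0.841), then CRIP3 (0.843), QPRT, an enzyme of NAD synthesis (0.932), FBXO15, an F-box protein (0.948), and the eotaxin CCL26 (1.00), against a median of 1.42. Their group means do not follow those of PAPPA2. FMO1 was at 1.25 ± 0.174 FPKM in ETEC, 1.93 ± 1.02 in PET and 3.06 ± 0.943 in CON, and CCL26 at 4.08 ± 1.34, 16.6 ± 16.9 and 35.2 ± 30.1 in the same order (SD, n = 8 each). USP9Y ranked number 7 on this measure, and number 5 over the 14 unmixed libraries. Over the 14 unmixed libraries, 4 of the 5 genes were the same (FMO1, CRIP3, QPRT and FBXO15).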

How the data were processed

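RNA was taken from jejunal tissue with TRIzol, per the labels' protocols, which also describe small RNA enrichment whereas the deposited values are per gene. The deposited table holds the authors' whole-number read count of each gene in each library, the matching FPKM, and log2 fold changes with p-values and adjusted p-values for the 3 comparisons, per the file headers. The aligner, counter, build and strand setting are not stated there, so overlapping or antisense genes are uncertain. None of the gene identifiers matched the reference table (assembly Bosgru_T2T1.0; 0 matches), and no sequence was used here.

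The members and gene lists were chosen with earlier results of these data known. All listed genes had been called by the authors from these same libraries, so tests on them are not independent of that selection. The adjustment of p-values covers listed genes only, not all genes measured. The test on counts was edgeR's quasi-likelihood test (version 4.0.16, R 4.3.3; filterByExpr, 1 fit over 3 groups, Benjamini-Hochberg over 577 genes, threshold 0.05). Library sizes came from the ratio of count to FPKM at 233 genes that reached 20 counts in every library, and this ratio differed between genes by at most 0.000475 on the log2 scale. TMM presumes that most entered genes do not change, while all listed genes were called by the authors, so it served as an alternative. Against the scaling used here it moved log2 fold changes by a median of 0.61 in ETEC against CON, -0.62 in PET against ETEC and -0.02 in PET against CON. Other alternatives were DESeq2 1.42.0 size factors and test, limma 3.58.1 (voom with quality weights), no filter, only the groups compared, the replicate number as a block, subsets of libraries and leaving out each library; the Y-linked term was added after seeing the data. Closeness to a mix of 2 libraries was judged by non-negative weights on 510 genes, with a residual ratio under 0.8. The smallest chi-square per gene between libraries of a group was 30.1 over 84 pairs, so none agreed within sampling noise. FPKM entered as log2(FPKM + 0.1). The edgeR procedure was checked on simulated data. Named genes were PAPPA2, members of 2 lists (growth factor axis and metzincins), listed genes within 1 Mb, and the 5 nearest genes on each likeness measure.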

Additional observations from a re-analysis of the deposited data

Results flagged for a closer look

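In 18 sets of 8 libraries examined (PAPPA2, IGF2BP3, MMP7, MMP9, MEP1A and BRINP2 in 3 groups), 2 held a library whose gap to its neighbour was large for the range of its group. Chance gives this in about 1 of 20 sets of independent, normally distributed values. FPKM without a log and libraries that resemble mixes need not meet these conditions, so that rate is only a guide. MMP9 stood at 104.1 FPKM in PET-5, far above the other PET libraries. MEP1A stood at 9.04 FPKM in ETEC-7, far above the other ETEC libraries. No PAPPA2 value stood apart in this way in any of the 3 groups.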

How the results depend on the processing

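PAPPA2 in PET against ETEC stayed below 0 and uncalled in all 35 alternatives (log2 fold change -0.78 to -0.22, edgeR, DESeq2 or limma adjusted p 0.118 to 0.770), and its exact permutation p ran from 0.0519 (without PET-6) to 0.357 in 22. Leaving out each library gave log2 fold changes of -0.48 to -0.22 there, 2.06 to 2.31 in ETEC against CON and 1.71 to 1.98 in PET against CON. The values against CON moved past the spread between libraries with TMM (2.87 for ETEC) and with Y-linked counts as a term (1.40 and 1.03). The numbers of genes called, 409, 271 and 239 in ETEC against CON, PET against ETEC and PET against CON, ran from 369 to 447, 235 to 296 and 209 to 280 without single libraries. Over the 14 unmixed libraries, edgeR gave calls for 0, 0 and 10 genes (153, 163 and 156 at an unadjusted p under 0.05), and 11, 0 and 13 with TMM (124, 123 and 146). With Y-linked counts as a term 94 and 35 were called against CON, with TMM 162 in PET against ETEC, and with only the groups compared 130 in PET against CON. Higher genes were 171, 207 and 151 of those called, against 208, 76 and 136 with TMM of 297, 162 and 224. Same-numbered PET and ETEC libraries correlated at -0.0410 to 0.338 in their deviations, over 0.1 in 5 of 8 pairs. The range was -0.377 to 0.638 for PET and CON and -0.115 to 0.0362 for ETEC and CON. The numbers were not taken to pair libraries. With the replicate number as a block, PAPPA2 had log2 fold changes of -0.43 (adjusted p = 0.204) in PET against ETEC and 2.28 and 1.85 for ETEC and PET against CON, and the exact sign-flip p was 0.0781; 380, 185 and 179 genes were called. Directions that turned, all among values without a call, were those of IGF2BP3 in ETEC against CON with TMM (0.41), DESeq2 size factors (0.23) and the Y-linked term (0.19), MMP7 there over the 14 unmixed libraries (-0.44, with TMM -0.041), MMP9 in PET against ETEC with TMM (-0.31), DESeq2 size factors (-0.13), voom (-0.53) and without PET-5 (-0.13; 0.67 at the highest without PET-7), MEP1A in PET against CON with voom (-0.25), the block (-0.10) and the Y-linked term (-0.0032), and BRINP2 in PET against ETEC with TMM (-0.034). The causes of these changes were not tested.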
